A study of Homo sapiens with 6 samples.

Results

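The core spliceosome genes are here the genes whose symbols begin with SNRP, LSM followed by a digit, SF3A, SF3B, PRPF or U2AF, mainly genes of the pre-mRNA splicing machinery. They were chosen by symbol and by the protein_coding gene type of GENCODE release 44, with no measured value in the rule itself. They also include LSM1 of mRNA decay, LSM10 and LSM11 of U7, and LSM12, LSM14A and LSM14B, none grouped here with splicing. They made up 44 of the 7684 genes and 60 of the 9831 isoforms with a listed edit. Of the 44 genes, 31 were represented by 1 isoform and 13 by several, and 52 of the 60 isoforms were annotated as protein coding, 6 as retained introns and 1 as a target of nonsense-mediated decay. Together their exons held 31989 cytosines (Cs) that could be edited.

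The data are C-to-U edits in PacBio long reads from 6 libraries of fixed HEK293T cells, a transformed human embryonic kidney line that the cell line label gives as HEK293XT. In the 2 RBFOX2-INSCRIBE libraries, a rabbit antibody against the splicing regulator RBFOX2 recruited Apo1-Nb, a purified fusion of the cytosine deaminase APOBEC1 and a nanobody against rabbit IgG. The 2 enzyme-only libraries, numbered 2 and 3, received Apo1-Nb without the antibody, and the 2 buffer-only libraries received neither protein. All 6 came from unmodified cells of 1 line that were fixed before editing, so editing was done on fixed material by added enzyme. Replicates of a group were wells of cells of this line on separate slides, and the study calls its INSCRIBE replicates technical. P-values therefore measure the spread between such wells, which may be technical throughout.

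The spliceosome removes introns in a series of steps. U1 and U2 small nuclear ribonucleoproteins (snRNPs) first mark the 5′ splice site and the branch point, with U2AF reading the 3′ splice site. The U4/U6.U5 tri-snRNP then joins, and the complex is rearranged into its catalytic form. The Sm proteins form a ring on U1, U2, U4 and U5 snRNAs, a related LSm ring sits on U6, and SF3A and SF3B belong to the U2 snRNP. RBFOX2 binds UGCAUG in pre-mRNA and mature mRNA and regulates alternative exons, so the comparison with the enzyme-only control asks which transcripts carried edits placed through RBFOX2.

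RBFOX2-INSCRIBE replicates 1 and 2 held 1182 and 1167 distinct edited sites in the core spliceosome genes. The enzyme-only libraries held 697 in replicate 2 and 886 in replicate 3, and the buffer-only libraries held 472 and 487. The groups thus did not overlap, with the antibody highest and buffer lowest. The edited share of all exonic Cs of the members, on the strand of the isoform, was 3.53% ± 0.0553 (SD, n = 2) with RBFOX2-INSCRIBE, 2.37% ± 0.385 in the enzyme-only control and 1.41% ± 0.0685 in the buffer-only control. The corresponding shares over all genes were 2.75% ± 0.0495, 1.62% ± 0.649 and 0.977% ± 0.0125. A two-sided exact permutation test of 2 libraries against 2 cannot give a p below 0.33, and each of these differences reached that value (exact p = 0.33).

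Libraries differed in total before any gene was singled out. Whole libraries held 207675 and 212661 sites with RBFOX2-INSCRIBE, 90602 and 160201 with enzyme only, and 79210 and 77757 with buffer only. No read numbers accompany the deposited fractions, and depth was not estimated from the fractions themselves. A gene with fewer reads was therefore not told apart from a gene with fewer edits per read. The core spliceosome genes took 0.569% and 0.549% of the sites in RBFOX2-INSCRIBE, 0.769% and 0.553% with enzyme only, and 0.596% and 0.626% with buffer only. The RBFOX2-INSCRIBE and enzyme-only shares overlapped (two-sided exact permutation p = 0.67), so the members as a whole took no larger part of the edits with the antibody than without it. Without enzyme-only replicate 2 that difference turned from -0.10 to 0.01 percentage points.

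Most edits of the members were rare among reads. The median edit fraction of an edited C was 0.758% and 0.717% with RBFOX2-INSCRIBE, 0.585% and 0.658% with enzyme only, and 0.569% and 0.515% with buffer only. Cs with a fraction of at least 0.02 numbered 202 and 188, then 100 and 122, then 59 and 63 in the same order of libraries. Gene counts below also take in sites seen as G-to-A on the transcript strand, which are not C-to-U edits of that transcript. The members held 20 to 50 of these in a library, all in 9 genes.

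The base before the edited C separated the groups. APOBEC1 prefers a C that follows A or U. Of the 7324 member Cs after A, 6.29% ± 0.00965 (SD, n = 2) were edited with RBFOX2-INSCRIBE, 3.62% ± 1.06 in the enzyme-only control and 1.07% ± 0.0290 in the buffer-only control. Of the 8293 Cs after U, the shares were 4.23% ± 0.179, 2.61% ± 0.315 and 1.15% ± 0.0938. Neither class overlapped between any pair of groups (exact p = 0.33 for each). The same held over all genes, so this pattern was not particular to the members. The mean share with RBFOX2-INSCRIBE over that with enzyme only was 1.738 after A and 1.619 after U in the members. Over all genes these ratios were 1.905 and 1.868. Cs after G were edited at 2.55% ± 0.202, 2.29% ± 0.0460 and 2.26% ± 0.110, and Cs after C at 1.40% ± 0.196, 1.15% ± 0.179 and 1.19% ± 0.0897. In these classes the buffer-only control, which had no deaminase, came within 1.17-fold of RBFOX2-INSCRIBE. A gene whose edits lie mostly after G or C therefore carried a larger share of edits of the kind also seen without enzyme. These counts are given below for PRPF4B, LSM4, SNRPB, SNRPA, SF3B2, U2AF2 and PRPF6.

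**Figure D1:**
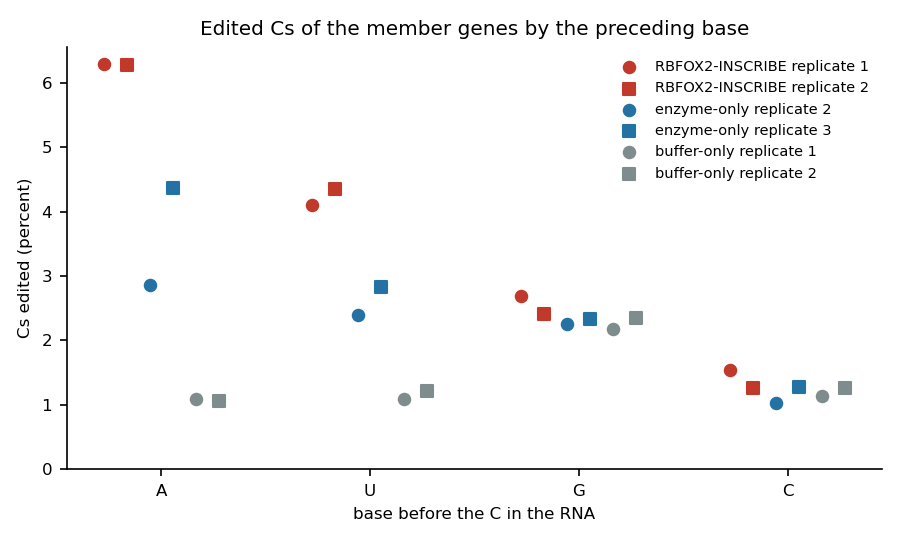
Share of the member genes' exonic Cs that were edited (y axis, percent) by the base before the C (x axis), with 1 point for each of the 6 libraries. After A, the RBFOX2-INSCRIBE libraries lie at 6.29% and 6.28% and the buffer-only libraries at 1.09% and 1.05%, whereas after C all 6 libraries lie between 1.03% and 1.53%.

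The motif that RBFOX2 binds was searched in the exons of the listed isoforms, on the transcript strand only, as the letters TGCATG of the hg38 genome. A C within 50 nt of UGCAUG was present in 17 of the 44 members (38.6%), against 57.9% of all genes. Of the 675 member Cs within 50 nt of UGCAUG, 49 and 59 were edited in the RBFOX2-INSCRIBE libraries, 13 and 18 with enzyme only, and 7 and 10 in the buffer-only libraries. As shares, these were 7.26% and 8.74%, then 1.93% and 2.67%, then 1.04% and 1.48%. The edited share near the motif divided by that of the other 31314 Cs was 2.34 ± 0.359 (SD, n = 2) with RBFOX2-INSCRIBE, 0.963 ± 0.0659 in the enzyme-only control and 0.886 ± 0.183 in the buffer-only control (two-sided exact permutation p = 0.33 for RBFOX2-INSCRIBE against either control). Over all genes the ratios were 1.83 ± 0.0119, 1.04 ± 0.0416 and 0.985 ± 0.0340, so Cs near UGCAUG were edited more often than other Cs in both RBFOX2-INSCRIBE libraries. When only fractions of at least 0.02 were counted, the members' ratios were 1.67 and 4.61 with RBFOX2-INSCRIBE, 1.93 and 1.98 with enzyme only, and 0.800 and 0.748 with buffer only. The antibody and enzyme-only libraries overlapped at that threshold (two-sided exact permutation p = 1), and the enzyme-only control then also had more edits near the motif.

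The excess near UGCAUG remained when each C was set against the other Cs of its own gene. The observed number over that expected from the same gene was 1.92 and 2.34 with RBFOX2-INSCRIBE, 1.09 and 1.01 with enzyme only, and 0.851 and 1.28 with buffer only. Within the same gene and the same region (5′ UTR, coding sequence or 3′ UTR), the RBFOX2-INSCRIBE ratios were 1.69 and 2.01, and those of the 4 control libraries lay between 0.780 and 1.22. With the shorter motif GCAUG, which contains all UGCAUG positions, the ratios were 1.24 and 1.23 with RBFOX2-INSCRIBE, 1.00 and 1.03 with enzyme only, and 0.978 and 1.35 with buffer only, so that the antibody overlapped buffer. The edited share in RBFOX2-INSCRIBE was lower beyond 50 nt from UGCAUG than within it. It was 7.65% and 8.50% of the 353 Cs within 25 nt, 6.83% and 9.01% of the 322 Cs at 26 to 50 nt, 5.56% and 6.59% of the 683 Cs at 51 to 100 nt, and 3.37% and 3.26% of the 29487 Cs more than 200 nt away. In the enzyme-only control the same classes had 1.70% and 2.27%, then 2.17% and 3.11%, then 2.20% and 2.78%, then 2.11% and 2.61%.

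**Figure D2:**
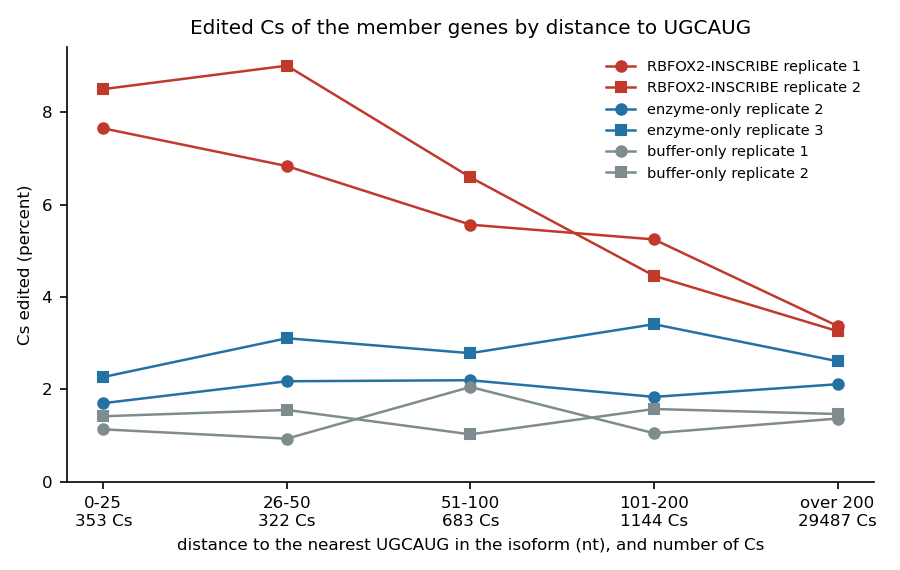
Share of the member genes' exonic Cs that were edited (y axis, percent) by distance to the nearest UGCAUG in the isoform (x axis, nt, with the number of Cs in each class), with 1 line for each library. The RBFOX2-INSCRIBE lines lie at 7.65% and 8.50% within 25 nt, at 6.83% and 9.01% from 26 to 50 nt and at 3.37% and 3.26% beyond 200 nt, and the control lines stay between 0.932% and 3.41%.

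Cs edited in both RBFOX2-INSCRIBE libraries within 24 nt of UGCAUG show what these sites look like, and those of 4 genes that no control library held are printed here from the hg38 reference, 5′ to 3′ in DNA letters on the transcript strand. Capitals mark the TGCATG motif and the edited C. The LSM8 site (chr7:118194100-118194129, plus strand) and the PRPF4B sites (chr6:4064909-4064938 and chr6:4064922-4064951, plus strand) lie in 3′ UTRs, as do the SF3A1 sites (chr22:30332305-30332334 and chr22:30333594-30333623, minus strand). The SF3B1 site (chr2:197419747-197419776, minus strand) lies in the exon of a retained-intron isoform.
LSM8, C 19 nt downstream of the motif: ttTGCATGagaattgtaagggagccaCaac
PRPF4B, C 15 nt upstream: gtaaCttgcattttagcagTGCATGtttct
PRPF4B, C 12 nt downstream: tagcagTGCATGtttctaattgaCttactg
SF3A1, C 24 nt downstream: TGCATGcagagggctccaggaattgtagaC
SF3A1, C 14 nt downstream: taagtTGCATGccatagtcacacaCtgtga
SF3B1, C 19 nt upstream: taCatactagacttttcagccTGCATGaat

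The edited C of each of these 6 windows follows an A. The PRPF4B C at 12 nt had the highest fractions of the 6, with 4.21% and 2.83% of reads edited in RBFOX2-INSCRIBE replicates 1 and 2. The others lay between 0.787% and 1.53%. A second PRPF4B C at 16 nt downstream of the same motif was edited at 1.05% and 0.943%. Thus 3 Cs around 1 UGCAUG of this 3′ UTR were edited in both RBFOX2-INSCRIBE libraries and in no control library. The sites printed were chosen for that pattern, so their absence from the controls is no separate result. The Cs at 15 nt upstream and 16 nt downstream had equal fractions in each library, and how many reads carried them is not known. Enzyme-only replicate 3 and both buffer-only libraries listed no edited C anywhere in PRPF4B.

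Among the 17 members with a C near UGCAUG, 14 had an edited one in both RBFOX2-INSCRIBE libraries (37.8% of the 4449 such genes in all), 6 in both enzyme-only libraries (17.9% of all) and 2 in both buffer-only libraries (12.5% of all). In 10 members both RBFOX2-INSCRIBE libraries held more of them than both enzyme-only libraries, against 24.9% of all genes with the motif. LSM8 had 3 and 9 edited Cs near UGCAUG with RBFOX2-INSCRIBE and 1 and 1 with enzyme only. PRPF4B had 3 and 8 against 1 and 0, and SNRPA1 had 5 and 3 against 0 and 2. Edits near UGCAUG in both RBFOX2-INSCRIBE libraries and in neither enzyme-only library were found in SF3B3 (2 and 3 Cs) and LSM11 (1 and 5 Cs), where 9.15% of all genes with the motif met the same condition. LSM11 also had 1 and 2 such Cs in the buffer-only libraries, and no single C near the motif recurred between the RBFOX2-INSCRIBE libraries in either gene.

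The comparison of RBFOX2-INSCRIBE with the enzyme-only control was made gene by gene on the number of distinct edited Cs, as log2((edited Cs + 0.5) / exonic Cs), the gene-level form of editsC. Genes needed a mean of 5 or more edited Cs, and 30 of the 44 members were tested. None passed an adjusted p of 0.05 in limma in either direction, where 0.0193% of the 5190 genes tested were called higher and 0% lower. At an unadjusted p of 0.05, 7 members passed, or 23.3%, against 16.2% of all genes tested. For 15 of the 30, each RBFOX2-INSCRIBE value exceeded each enzyme-only value (51.2% of all genes tested), and for SNRPA, LSM4 and U2AF1 the reverse held (3 of 30, against 3.72%). The median log2 difference of the members was 0.59, that of all genes tested 0.83, and that of 50 tested genes of other spliceosome proteins 0.52. The members' median passed to -0.20 when every library was scaled to the same total, where that of all genes was 0.05. With unscaled counts, 9 of 31 members were called higher without enzyme-only replicate 3, against 30.8% of all genes tested. Leaving out enzyme-only replicate 2 instead called none, and no other gene either. A replicate block by the numbers in the titles, in a fit of all 3 groups, called 4 members higher (PRPF38A, PRPF39, PRPF4 and SF3B2, 13.3% of 30, against 22.3% of all genes) and LSM4 lower (3.33%, against 0.79%). The number 3 occurs in enzyme-only replicate 3 alone, so that block leaves this library out of the difference.

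**Figure D3:**
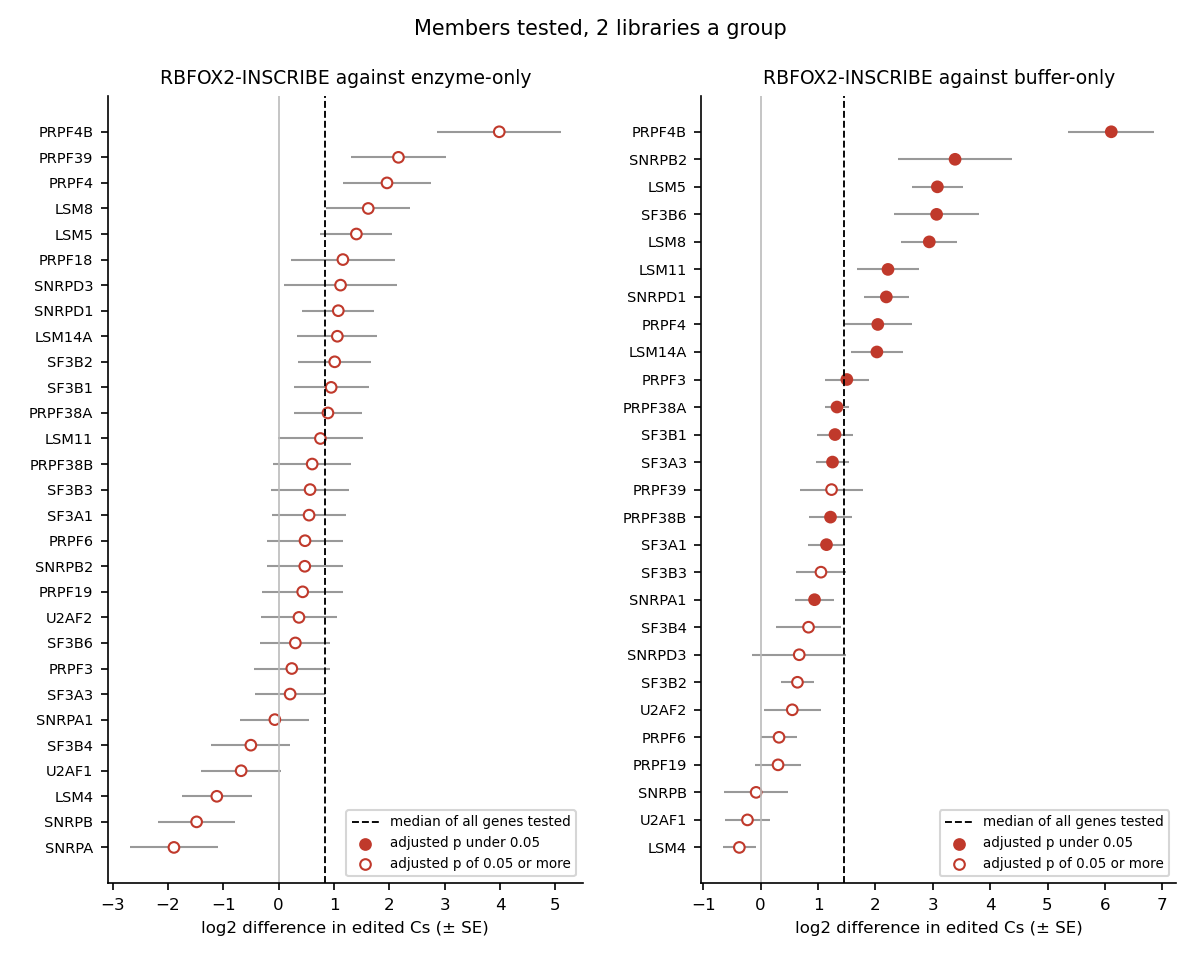
Log2 differences in edited Cs (x axis, ± SE) for tested members in RBFOX2-INSCRIBE against enzyme-only (left) and against buffer-only (right), with the median of all genes tested as a dashed line (0.83 and 1.45). Filled points passed an adjusted p of 0.05, which holds for 0 members on the left, and PRPF4B has the highest value in both panels (3.99 and 6.11).

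PRPF4B, a kinase that phosphorylates other PRPF proteins as the tri-snRNP joins, had the largest difference of the members. The gene (ENSG00000112739) lies at chr6:4021267-4064983 on the plus strand and was represented by 1 isoform, ENST00000337659. It held 29 and 40 edited Cs in the RBFOX2-INSCRIBE libraries, 9 and 0 with enzyme only, and 0 in both buffer-only libraries. Both RBFOX2-INSCRIBE libraries were therefore high, and the enzyme-only libraries differed from each other. The log2 difference from the enzyme-only control was 3.99 (SE 1.12, limma adjusted p = 0.16). It passed with a pseudocount of 1 (log2 difference 3.47, limma adjusted p = 0.033), where 0.559% of all genes were called higher, and with a minimum mean of 10 edited Cs (limma adjusted p = 0.045), where 0.659% were, and it was the only member that did in either setting. Leaving out enzyme-only replicate 3 took the difference to 1.86, and leaving out replicate 2 in its place took it to 6.11. It passed in neither case. Against the buffer-only control, in which no edited C was listed, the count was at least 11.5-fold higher, taking 3 counts per library as the floor and counting sites on both strands. The gene has 1283 exonic Cs. Over all genes, 0.985% and 0.968% of exonic Cs were edited in the buffer-only libraries. Too few reads of PRPF4B in the control libraries without an edit could give the same counts, which was not tested. In RBFOX2-INSCRIBE, 21 and 28 of its sites were Cs after A or U, 3 and 3 were Cs after G or C, and 5 and 9 read as G-to-A.

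PRPF38A and PRPF38B, which act with PRPF4B as B-complex factors before activation, both lay higher in the RBFOX2-INSCRIBE libraries than in any control library. PRPF38A had 102 and 98 edited Cs with RBFOX2-INSCRIBE, 43 and 67 with enzyme only and 41 and 38 with buffer only, and its editsC with RBFOX2-INSCRIBE was 10.6% ± 0.300 (SD, n = 2). Its log2 differences were 0.89 (SE 0.61, limma adjusted p = 0.40) from the enzyme-only control and 1.33 (SE 0.21, limma adjusted p = 0.0022) from the buffer-only control. Between 11 and 22 of the PRPF38A sites in each library read as G-to-A. PRPF38B had 29 and 38, then 18 and 26, then 14 and 14 edited Cs, and its log2 difference from the buffer-only control was 1.22 (SE 0.38, limma adjusted p = 0.027).

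PRPF39, a U1-associated protein, had 15 and 18 edited Cs with RBFOX2-INSCRIBE, 1 and 9 with enzyme only and 4 and 11 with buffer only. Its log2 difference from the enzyme-only control was 2.17 (SE 0.86, limma adjusted p = 0.245), the second largest of the members. It lay at 0.83 with enzyme-only replicate 2 left out and at 3.50 with replicate 3 left out (limma adjusted p = 0.029). Its buffer-only counts exceeded the enzyme-only counts on average.

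**Figure D4:**
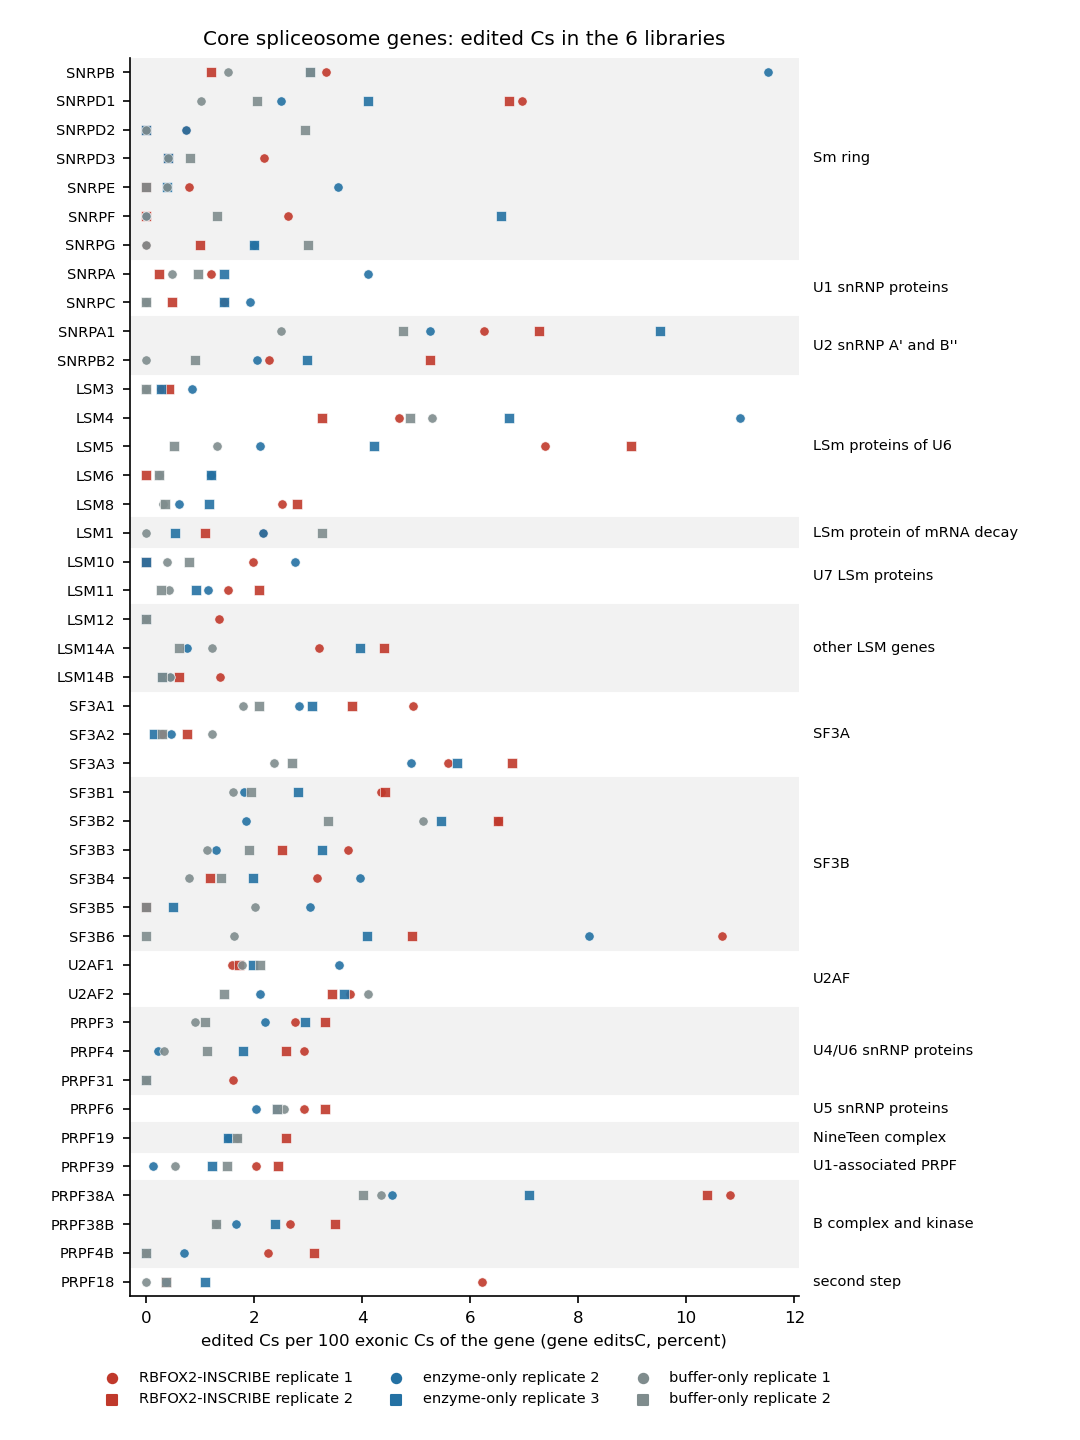
Gene editsC (x axis, edited Cs per 100 exonic Cs) of the members named, ordered by role, with 1 point for each of the 6 libraries. PRPF38A has a mean of 10.6% with RBFOX2-INSCRIBE, and SNRPB and LSM4 have their highest values in enzyme-only replicate 2.

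The genes of the U6 LSm ring differed in the order of the groups. LSM8, the member that sets the U6 ring apart from the cytoplasmic one, had 65 and 72 edited Cs with RBFOX2-INSCRIBE, 16 and 30 with enzyme only and 8 and 9 with buffer only. LSM5, a shared subunit of both rings, had 28 and 34, then 8 and 16, then 5 and 2. In both genes the 3 groups were ordered without overlap. The log2 differences from the enzyme-only control were 1.62 (SE 0.76, limma adjusted p = 0.29) for LSM8 and 1.40 (SE 0.65, limma adjusted p = 0.29) for LSM5, and both passed without enzyme-only replicate 3 (limma adjusted p = 0.045 and 0.029). LSM4, a shared subunit of the same rings, was highest with enzyme only and lowest with the antibody, with 23 and 16 edited Cs with RBFOX2-INSCRIBE, 54 and 33 with enzyme only and 26 and 24 with buffer only. Its log2 difference of -1.12 (SE 0.64, limma adjusted p = 0.34) was the third lowest of the members. Its sites after G or C numbered 15 and 10, then 29 and 21, then 20 and 18. Those after A or U numbered 8 and 6, then 25 and 12, then 6 and 6, so both kinds were fewer with RBFOX2-INSCRIBE than with enzyme only. With Cs after A or U only, the log2 difference was -1.26. LSM6, with at most 5 edited Cs in a library, and LSM3, with at most 6 and none in the buffer-only libraries, were too sparse to be tested.

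Among the Sm ring genes, SNRPD1 had 61 and 59 edited Cs with RBFOX2-INSCRIBE, 22 and 36 with enzyme only and 9 and 18 with buffer only, again in 3 groups without overlap. Its log2 differences were 1.08 (SE 0.65, limma adjusted p = 0.36) and 2.19 (SE 0.39, limma adjusted p = 0.0033). SNRPB, which encodes the paired Sm proteins B and B′, held 11 and 4, then 38 and 10, then 5 and 10. Its log2 difference from the enzyme-only control was -1.48 (SE 0.70, limma adjusted p = 0.29), and enzyme-only replicate 2 alone held more edited Cs than any other library, 24 of its 38 after G or C. Without that library the difference was -0.55. SNRPD3 had 16 and 3 edited Cs with RBFOX2-INSCRIBE against 3 and 3, so that its log2 difference of 1.12 (SE 1.01) rested on 1 library. SNRPD2, SNRPE, SNRPF and SNRPG had at most 9 edited Cs in any library and were not tested.

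The U1 proteins were edited sparsely. SNRPA, which binds a stem loop of U1 snRNA, had 5 and 1 edited Cs with RBFOX2-INSCRIBE, 17 and 6 with enzyme only and 2 and 4 with buffer only. Its log2 difference from the enzyme-only control was -1.89 (SE 0.80, limma adjusted p = 0.26), the lowest of the members, with both RBFOX2-INSCRIBE libraries below both enzyme-only libraries. Of the 17 sites in enzyme-only replicate 2, 11 followed G or C and 4 read as G-to-A. SNRPC, which helps U1 to hold the 5′ splice site, had 3 and 1, then 4 and 3, and none in the buffer-only libraries. The proteins A′ and B″ of U2 were edited more. SNRPA1 had 25 and 29, then 21 and 38, then 10 and 19 edited Cs, and SNRPB2 had 10 and 23, then 9 and 13, then 0 and 4. For neither did the difference from the enzyme-only control pass (log2 differences of -0.07 and 0.47, limma adjusted p = 0.95 and 0.68).

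The SF3A and SF3B genes encode the U2 subunits around the branch point. Each RBFOX2-INSCRIBE count exceeded each enzyme-only count in 1 of 2 tested SF3A genes and in 2 of 5 tested SF3B genes, against 51.2% of all genes tested, and none was called. SF3A1 had 66 and 51, then 38 and 41, then 24 and 28 edited Cs. SF3B1, the largest SF3B subunit and the one that clamps the branch helix, had 65 and 66, then 27 and 42, then 24 and 29. In both genes the RBFOX2-INSCRIBE libraries lay above all controls, with log2 differences from the enzyme-only control of 0.55 (SE 0.67) and 0.95 (SE 0.68), neither of which passed in limma. SF3B2 had 56 and 56 edited Cs with RBFOX2-INSCRIBE, 16 and 47 with enzyme only and 44 and 29 with buffer only, with a log2 difference of 1.01 (SE 0.66, limma adjusted p = 0.39). The enzyme-only libraries differed from each other more than either RBFOX2-INSCRIBE library differed from enzyme-only replicate 3, and between 1 and 9 of the SF3B2 sites in each library read as G-to-A. In SF3B2, 29 and 26 of the RBFOX2-INSCRIBE edits followed G or C and 22 and 23 followed A or U. SF3B3 had 86 and 58 with RBFOX2-INSCRIBE and 30 and 75 with enzyme only, which overlapped. SF3A3, with the highest editsC of the SF3A genes (6.18% ± 0.838 with RBFOX2-INSCRIBE), had 33 and 40 edited Cs against 29 and 34. SF3B6, the subunit that contacts the branch-point adenosine, had 13 and 6, then 10 and 5, then 2 and 0. SF3B4 had 16 and 6 against 20 and 10, a log2 difference of -0.50 (SE 0.72) that turned to 0.17 without RBFOX2-INSCRIBE replicate 2. SF3B5, a short single-exon gene, had no edited C with RBFOX2-INSCRIBE, 6 and 1 with enzyme only and 4 and 0 with buffer only.

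U2AF1, the subunit that reads the AG of the 3′ splice site, had fewer edited Cs with RBFOX2-INSCRIBE (24 and 26) than with enzyme only (54 and 30) or with buffer only (27 and 32). The log2 differences were -0.68 (SE 0.72, limma adjusted p = 0.57) and -0.23 (SE 0.39, limma adjusted p = 0.62). The genome holds near-identical copies of U2AF1, and how reads were divided between them is not known, so its counts are uncertain. U2AF2, the subunit that binds the polypyrimidine tract, had 34 and 31, then 19 and 33, then 37 and 13, and its groups overlapped. In U2AF2, 16 and 8 of the RBFOX2-INSCRIBE edits followed G or C and 14 and 14 followed A or U.

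Of the tri-snRNP genes, PRPF4 (a U4/U6 protein) had 26 and 23 edited Cs with RBFOX2-INSCRIBE, 2 and 16 with enzyme only and 3 and 10 with buffer only. Its log2 difference of 1.96 (SE 0.80, limma adjusted p = 0.26) from the enzyme-only control was the third largest of the members. It too depended on the enzyme-only library kept, at 0.60 with replicate 3 alone and 3.32 with replicate 2 alone (limma adjusted p = 0.028). PRPF3, its partner in the U4/U6 snRNP, had 15 and 18 against 12 and 16. PRPF6, the U5 protein that bridges the tri-snRNP, had 23 and 26, then 16 and 19, then 20 and 19, with a log2 difference from the enzyme-only control of 0.48 (SE 0.69). In PRPF6, 16 and 19 of the RBFOX2-INSCRIBE edits followed G or C and 7 and 7 followed A or U. PRPF31 had 8 edited Cs in RBFOX2-INSCRIBE replicate 1 and none in any other library, 4 of the 8 reading as G-to-A. PRPF19, a ubiquitin ligase of the activated spliceosome, had 11 and 17, then 10 and 10, then 11 and 11. PRPF18, a second-step factor, had 17 and 1 with RBFOX2-INSCRIBE and 1 and 3 with enzyme only, so that the RBFOX2-INSCRIBE libraries differed from each other more than the groups did.

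The LSM genes outside the U6 ring varied. LSM11, a subunit of the U7 snRNP that processes histone mRNA, had 21 and 29 edited Cs with RBFOX2-INSCRIBE, 16 and 13 with enzyme only and 6 and 4 with buffer only, in 3 groups without overlap. LSM14A, a translational repressor of processing bodies, had 21 and 29 with the antibody and 5 and 26 with enzyme only, and its log2 difference of 1.06 (SE 0.72, limma adjusted p = 0.40) became -0.07 without enzyme-only replicate 2. LSM12 had 9 edited Cs in RBFOX2-INSCRIBE replicate 1 and none in the other 5 libraries. LSM1, which replaces LSM8 in the cytoplasmic decay ring, had at most 6 in any library and was not tested. LSM10, the partner of LSM11 in U7, had at most 7, LSM14B at most 9 and SF3A2, the third SF3A gene, at most 8, and these were not tested either. A count of 0 in a sparse gene can come from too few reads, whose number is not known.

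Against the buffer-only control, which received neither antibody nor enzyme, 28 members were tested and 17 were called higher by limma (60.7%), against 58% of all 4939 genes tested, and none lower (0.0607% of all genes). At an unadjusted p of 0.05, 18 members passed (64.3%), against 64.1% of all genes. In 21 members both RBFOX2-INSCRIBE libraries lay above both buffer-only libraries (78.7% of all genes), and in LSM4 and U2AF1 both lay below (1.09%). The members' median log2 difference was 1.24 and that of all genes 1.45, and 25 of 46 tested genes of other spliceosome proteins were called higher, with a median of 1.15. The share of members called was therefore near that of all genes. PRPF4B led with a fitted log2 difference of 6.11 (SE 0.75, limma adjusted p = 9.0e-04), a fitted value against a group at 0 and no bound. SNRPB2 rose by 3.39 (SE 1.00, limma adjusted p = 0.023), LSM5 by 3.08 (SE 0.44, limma adjusted p = 0.0014), SF3B6 by 3.07 (SE 0.74, limma adjusted p = 0.011) and LSM8 by 2.94 (SE 0.49, limma adjusted p = 0.0025). LSM11, SNRPD1, PRPF4 and LSM14A rose by 2.03 to 2.22, and PRPF3, PRPF38A, SF3B1, SF3A3, PRPF38B, SF3A1 and SNRPA1, by 0.94 to 1.50. By role, all 3 tested B-complex genes and both tested genes of SF3A, of U4/U6 and of the U2 proteins A′ and B″ were called. Neither U2AF gene was called, nor were PRPF6 and PRPF19. No member was called when either RBFOX2-INSCRIBE library was left out, 10 of 30 were called higher without buffer-only replicate 1 (40.5% of all genes) and 12 of 31 without buffer-only replicate 2 (40.1% of all genes). None was called with every library scaled to the same total, which placed the members' median at -0.13 and that of all genes at 0.09. The share of all genes called is not given for scaling or for either RBFOX2-INSCRIBE library left out. The absence of calls in these settings is therefore no result about the members.

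Enzyme without antibody was compared with buffer in 26 members, and limma called 1 of them higher, SNRPB2 (log2 difference 2.92, SE 0.77, adjusted p = 0.032), where 0.55% of the 4363 genes tested were called higher. This call did not hold with any 1 library left out. Without enzyme-only replicate 3, SNRPB2 fell below the minimum mean count and was not tested. In 15 of the 26 both enzyme-only libraries lay above both buffer-only libraries (42% of all genes tested), and in PRPF19 both lay below (1.63%). The members' median log2 difference was 0.80, and that of all genes was 0.63. This comparison shares the enzyme-only libraries with the first and the buffer-only libraries with the second, so their values are set side by side without a test between them.

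Counts of edited Cs differed between isoforms of the same gene in some members. Such counts also depend on the reads and the number of Cs of each isoform, and no difference between isoforms was tested. Tested isoform by isoform, none of 37 member isoforms was called in RBFOX2-INSCRIBE against enzyme-only (0.0513% of all isoforms), with a median log2 difference of 0.58, and 16 of 33 were called in RBFOX2-INSCRIBE against buffer-only (56.8% of all). In LSM14A, the isoform ENST00000433627 had 15 and 18 edited Cs with RBFOX2-INSCRIBE, 0 and 8 with enzyme only and 1 and 1 with buffer only, whereas ENST00000544216 had 6 and 12, then 5 and 18, then 7 and 3. Their log2 differences from the enzyme-only control were 3.04 and -0.16, and the difference between the isoforms was not tested. In SF3B1, the retained-intron isoform ENST00000470268 had 36 and 26, then 7 and 17, then 9 and 9, and the coding isoform ENST00000335508 had 30 and 42, then 20 and 26, then 16 and 20. In SNRPA1, the retained-intron isoform ENST00000558036 had 21 and 21, then 7 and 25, then 5 and 7, and the coding isoform ENST00000254193 had 4 and 8, then 14 and 13, then 5 and 12. The coding isoform of SNRPA1 was thus lower with RBFOX2-INSCRIBE than in the enzyme-only control, and its retained-intron isoform overlapped it. In U2AF1, the coding isoforms ENST00000291552 (10 and 4 against 28 and 13) and ENST00000380276 (4 and 3 against 14 and 8) were lower, as was the sparse retained-intron isoform ENST00000478282 (0 and 2 against 3 and 4), and the retained-intron isoform ENST00000496462 (10 and 17 against 10 and 7) was not. PRPF38B split its edits between the coding isoform ENST00000370025 (19 and 18 against 6 and 15) and ENST00000467302 (10 and 20 against 12 and 11), for which no coding sequence is defined.

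Position in the mRNA was not used to choose the genes. Of the 15443 member Cs in 3′ UTRs, 3.48% ± 0.0549 (SD, n = 2) were edited with RBFOX2-INSCRIBE, 1.91% ± 0.302 in the enzyme-only control and 0.936% ± 0.0778 in the buffer-only control. In coding sequence, with 12550 Cs, the shares were 3.92% ± 0.124, 3.12% ± 0.507 and 2.07% ± 0.146. RBFOX2-INSCRIBE was 1.82-fold above the enzyme-only control in 3′ UTRs and 1.26-fold in coding sequence, without overlap in either (two-sided exact permutation p = 0.33, the smallest possible). Over all genes these ratios were 1.94 and 1.43. In the 1835 Cs of 5′ UTRs the shares of 1.58% ± 0.539 and 1.61% ± 0.0385 overlapped (exact p = 1).

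Sites that recurred show which members carried edits in both RBFOX2-INSCRIBE libraries and in no other. There were 118 such Cs in 22 member genes, against 39 found in both enzyme-only libraries and in no other and 17 in both buffer-only libraries and in no other. Of the 3829 sites seen in the members in any library, these were 3.08%, 1.02% and 0.444%, and over all genes the corresponding shares were 4.33%, 0.762% and 0.341%. LSM8 held 12 of the 118, PRPF38A 9, and SF3B1 and SNRPD1 8 each. Of the 118, 73 followed A (61.9%, against 22.9% of all member Cs), 68 lay in 3′ UTRs (57.6%, against 48.3%) and 15 lay within 50 nt of UGCAUG (12.7%, against 2.11%). These shares describe Cs chosen for their presence in RBFOX2-INSCRIBE and were not tested. A fraction of at least 0.02 in both libraries was reached by 9 of the 118. The highest of these lay in the 3′ UTRs of SNRPB2 (chr20, position 16741427, 7.14% and 14.3%) and PRPF4B (chr6, position 4061390, 7.14% and 10.5%) and in the coding sequence of SF3B1 (chr2, position 197392315, 5.81% and 25%). Each followed an A. For SF3B1 the fraction is the highest over its listed isoforms. Depth at these sites was not estimated. Where reads are few, a high fraction can rest on few edited reads, and absence from the controls says little. The Cs shared by both RBFOX2-INSCRIBE libraries, 196 in all, made up 17.6% of the member Cs edited in the smaller library. That share was 9.69% in the enzyme-only control and 6.42% in the buffer-only control, and over all genes it was 25.1%, 13.3% and 9.24%.

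The members' differences were ordered by the base composition of their exons. Genes with little G and C differed most when RBFOX2-INSCRIBE was set against the enzyme-only control, with LSM8 (35.1% GC), LSM5 (35.7%), PRPF39 (36.9%) and PRPF4B (37.0%) among the 5 largest, and LSM4 (58.5%), SNRPA (57.9%) and SNRPB (57.8%) as the 3 lowest. Across the 30 tested members Spearman's rho between GC content and log2 difference was -0.65, and it lay between -0.70 and -0.52 with any 1 library left out. Across all 5190 genes tested it was -0.40. Against the buffer-only control rho was -0.77 across 28 members and -0.59 across all genes. Between the controls it was -0.16 across 26 members, with -0.59 when enzyme-only replicate 2 was left out and 0.12 when replicate 3 was. Across all 4363 genes tested between the controls it was -0.35, so the ordering over all genes was also present without the antibody. These are descriptions across genes that share the same libraries and depth, and genes are not replicates. Tested members with UGCAUG had a median log2 difference from the enzyme-only control of 0.89 (15 genes) and those without it 0.37 (15 genes), and the part that base composition has in either pattern was not tested.

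**Figure D5:**
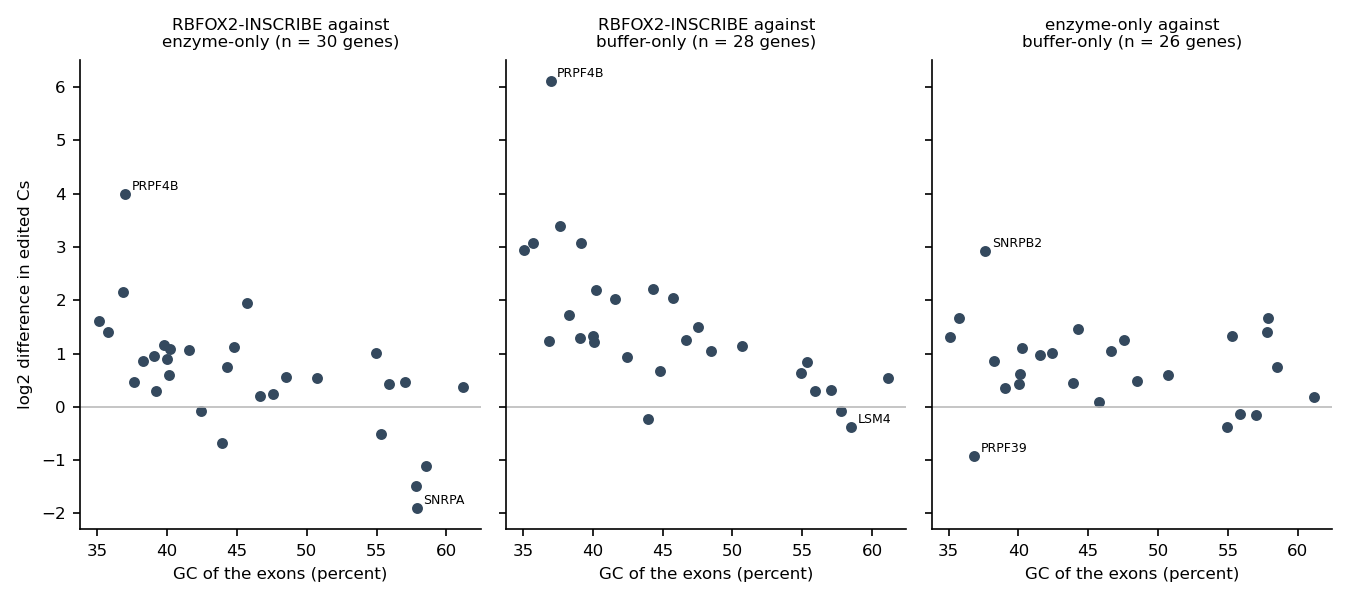
Log2 difference in edited Cs (y axis) against the GC content of the exons (x axis, percent) for the members tested in each of the 3 comparisons, 1 point per gene, with the highest and lowest member named. Spearman's rho is -0.65, -0.77 and -0.16 from left to right.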

How the data were processed

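Kinnex full-length libraries of 2 RBFOX2-INSCRIBE, 2 enzyme-only and 2 buffer-only samples, grouped by their titles, were analysed. The authors split and trimmed the consensus reads, mapped them to hg38 with pbmm2, discarded low-quality, secondary, supplementary and wrong-strand alignments, and assigned reads to isoforms with IsoQuant, counting unique assignments only. C-to-U edits came from their own scripts, after which positions edited in all samples and known SNPs (dbSNP) were dropped. Per the deposited files, each value is the edited fraction at 1 position of 1 isoform. Reads that match several isoforms are not counted under unique assignment. How reads from near-identical gene copies were divided is not stated. Read numbers are not given, depth was not estimated from the fractions, and no interval was computed. The annotation used for the long reads is not given in the sources used here. In GENCODE release 44, used here, 99.7% to 99.8% of the entries of each library fell on an isoform it lists.

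Each position and strand counted as 1 site in a library. Where a C was listed for several isoforms of a gene, its highest fraction was used. Edited Cs were summed per gene over the exons of its listed isoforms, on both strands, and divided by the exonic Cs (gene editsC). Motif, region and preceding-base shares used the transcript strand only. Genes whose mean over the compared libraries reached 5 edited Cs were tested on log2((edited Cs + 0.5) / Cs), unscaled, with limma (eBayes, trend and robust) and Benjamini-Hochberg adjustment over all genes tested, and a log2 difference on this scale understates the change of sparse genes. The fit was also run on simulated counts for RBFOX2-INSCRIBE against buffer-only. These were drawn without differences in library total, so that run cannot show how the fit handles such differences. Single values per library were compared with two-sided exact permutation tests. Alternatives were pseudocounts of 0.1 and 1, minimum means of 1 and 10 edited Cs or none, scaling to the same total, edit fractions of at least 0.02, the strand of the isoform only, all 3 groups in the fit, 2 replicate blocks, isoforms in place of genes, and each library left out. The limit to Cs after A or U and the bases of comparison within genes were chosen after seeing the data.

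Members with values in the text were those past an adjusted p of 0.05 (at most the 10 largest per comparison), the 10 largest and 5 smallest differences between RBFOX2-INSCRIBE and enzyme-only, the gene of highest editsC in each of 16 roles, those with edits near UGCAUG in both RBFOX2-INSCRIBE and neither enzyme-only library, the 5 most edited genes with several edited isoforms, and those with no edited C in a group. The other genes given were chosen after their values were seen. Of a list of 69 other spliceosome genes, 62 were listed here. The members and lists were chosen with earlier results of these data known. Some genes that fall under the rule were not analysed here, and 1 member enters the counts and medians while its own values are not reported here or drawn in the plots by gene. The tools were R 4.3.3 with limma 3.58.1, samtools 1.23.1, and Python 3.11.15 with pysam 0.24.0, matplotlib 3.10.9, scipy 1.17.1, pandas 2.3.3 and numpy 2.4.6.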

Additional observations from a re-analysis of the deposited data

How the results depend on the processing

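Of the results over all members or libraries, 97 settings kept the direction and stayed near the main value, 31 moved it and 6 reversed it. For single genes, 327 settings kept the call and direction, 45 lost a call, 13 gained one and 2 reversed. The mean ratio near UGCAUG was higher with RBFOX2-INSCRIBE than with enzyme only in every setting run, by 1.12 to 1.63 with 1 library left out, but the libraries of the groups overlapped with fractions of at least 0.02.

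For RBFOX2-INSCRIBE against enzyme-only, limma called 1 member with a pseudocount of 1 and 1 with a minimum mean of 10, and 0 to 9 with 1 library left out. The median of 0.59 became -0.20 after scaling to the same total and 0.92 with fractions of at least 0.02, and lay between 0.42 and 0.87 with 1 library left out. LSM14A turned to -0.073 without enzyme-only replicate 2 and ranged up to 2.20 with 1 library left out, and SF3B4 turned to 0.17 without RBFOX2-INSCRIBE replicate 2 and ranged down to -1.17. Against the buffer-only control, the 17 calls became 0 after scaling, 6 with fractions of at least 0.02 and 11 with all 3 groups in the fit. The number called also changed with 1 library left out. Shares of all genes called are not given for these settings, or for those between the controls. These counts are therefore no result about the members. The median of 1.24 became -0.13 after scaling, 2.27 with fractions of at least 0.02 and 2.19 with Cs after A or U only, an alternative chosen after seeing the data. Between the controls, the 1 call became 0 with a pseudocount of 1, a minimum mean of 1 or 10, scaling, fractions of at least 0.02, the transcript strand only, all 3 groups, isoforms in place of genes and every library left out, and 2 with Cs after A or U. That median of 0.80 became 0.19 after scaling and 1.46 with Cs after A or U.

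The share of sites in members, -0.10 percentage points for RBFOX2-INSCRIBE against enzyme-only, became 0.032 with fractions of at least 0.02, and lay between -0.21 and 0.0059 with 1 library left out. The difference in 5′ UTRs, -0.027 points, became 0.38 with fractions of at least 0.02, and lay between -0.41 and 0.35 with 1 library left out. The cause of these shifts was not tested. Where a group was left with 1 library, limma assumes that it varies like the others.

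The methods place replicates on separate slides without saying whether a number marks the same slide or day in every group. By the replicate field the deviations of number 1 and number 2 correlated at 0.115, 0.0434 and -0.0195 between pairs of groups over 4920 genes, so they were not taken as pairs. A replicate block by the title numbers, with all 3 groups, leaves enzyme-only replicate 3 out of the differences and called 5 members against the enzyme-only control (median 0.87), 16 against buffer-only and 0 between the controls. A block by the replicate field called 0, 12 and 1. With the title numbers, 22.3% of all genes were called higher and 0.79% lower against the enzyme-only control. The shares for the other counts are not given here, so those counts are no result about the members.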
